A study of Mus musculus with 6 samples.

Results

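Astro2 is an astrocyte cluster of the adult mouse olfactory bulb, the forebrain structure that receives the axons of olfactory sensory neurons. Its members were the cells that the authors' annotation places in this cluster, 1780 of 51426 annotated cells. The deposited annotation and the study's list of marker genes give opposite names to the smaller astrocyte clusters. The cluster of 1780 cells carries the name Astro3 in the annotation, but its genes were detected in the shares of cells that the list gives for Astro2, and it is called Astro2 here. The remaining astrocytes were 3130 cells of Astro1 and 336 cells of Astro3.

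RNA of single cells was captured in droplets in 6 libraries from wild-type C57BL/6NJ mice aged 14 weeks, with a pool of 3 mice per library. The 2 control libraries came from mice without a manipulation according to the labels, although the study's text also names the open side of occluded mice as the control. In the 2 naris-occluded libraries, a plug in 1 nostril deprived the bulb of odor input, and in the 2 trained libraries, mice on water restriction learned to discriminate odors for a water reward, both for 6 weeks. In each condition replicate 1 came from male mice and replicate 2 from female mice. This was read from transcripts of Xist and of the Y-linked genes Ddx3y and Eif2s3y, and the study's text says only that both sexes were used. Each library is a single pool, so a p-value measures the spread between pools, sex included.

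Astrocytes clear glutamate and GABA from the space around synapses, recycle them, buffer potassium, move water and couple to each other through gap junctions. They also secrete lipid carriers and matrix proteins and are rich in metallothioneins, small proteins that bind zinc and copper. Gfap, the intermediate filament that gives the class its usual stain, is abundant in some astrocytes and scarce in others.

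The transcripts of Astro2 cells carried the astrocyte label. After each cell was thinned to 500 unique molecular identifiers (UMIs, each marking 1 captured molecule), Astro2 cells held a median of 4 of 15 astrocyte markers, and 81.1% held at least 3, against 98.5% in Astro1 and 76.2% in Astro3. In EC2, an endothelial cluster of similar depth, the median was 1 marker, and 13.3% of cells held at least 3. None of the markers was found in 0.674% of Astro2 cells and in 43.0% of EC2 cells. Gfap alone marked few cells at this depth. It was found in 13.7% of thinned Astro2 cells, 9.84% of Astro1, 11.9% of Astro3 and 4.09% of EC2 cells, and before thinning in 19.3%, 27.5%, 32.1% and 7.38%. Slc1a3, the glutamate transporter GLAST, was found in 42.8% of thinned Astro2 cells, 78.8% of Astro1 cells and 11.3% of EC2 cells. The summed level of the 15 markers lay between 12112 and 14585 CPM (UMIs scaled to a common library total) in the Astro2 libraries and between 20490 and 23125 CPM in the Astro1 libraries, with no overlap. EC2 libraries held at most 4872 CPM.

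Astro2 cells were shallow and rich in mitochondrial transcripts. Their median was 708.5 UMIs and 413 genes per cell, against 1851.5 UMIs and 972.5 genes in Astro1 and 1859.5 UMIs and 1043 genes in Astro3. The median share of UMIs from the mitochondrial genome was 23.6% in Astro2, 11.1% in Astro1 and 8.44% in Astro3, and 90% of Astro2 cells lay between 10.5% and 38.4%. Among 38 clusters, Astro2 ranked 4 for the highest mitochondrial share and 3 for the lowest depth. Cells under 1000 UMIs made up 87.5% of Astro2 and 18.3% of Astro1. Median depth ranged from 632.5 to 852 UMIs per cell over the Astro2 libraries, and the summed counts of the cluster ranged from 142779 UMIs in naris-occluded replicate 2 to 394505 UMIs in trained replicate 1. Barcodes found in more than 1 library made up 5% of Astro2 cells, and of these 89 cells 2 had another Astro2 cell under the same barcode.

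**Figure D1:**
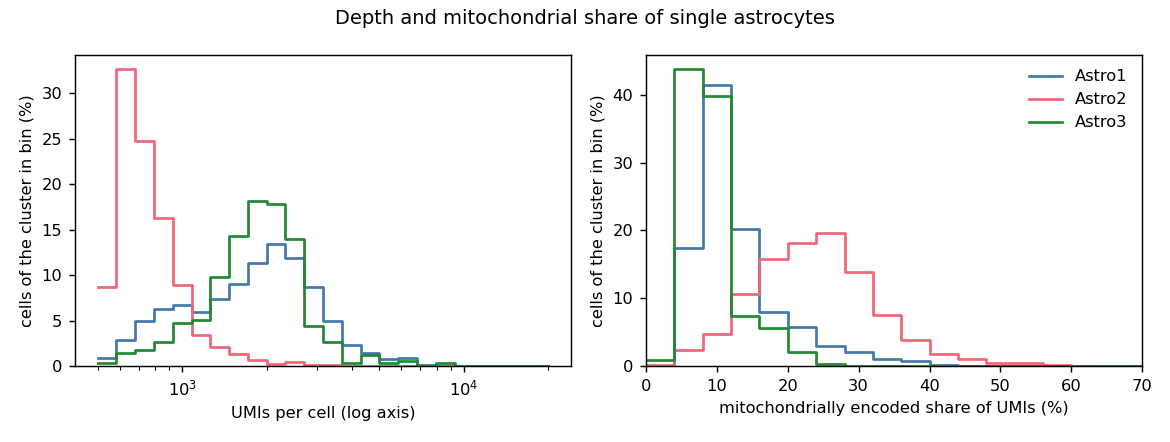
Distribution of UMIs per cell (left, log axis) and of the mitochondrially encoded share of UMIs (right) over the cells of Astro1, Astro2 and Astro3, as the percentage of each cluster's cells in each bin. The Astro2 curve peaks below 1000 UMIs and spreads to high mitochondrial shares, with medians of 708.5 UMIs and 23.6%, while Astro1 and Astro3 have medians of 1851.5 and 1859.5 UMIs.

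Levels were then compared between the astrocyte clusters within each library. The clusters were defined from these same genes, so every comparison between clusters is a description without a test. For each gene the log2 ratio of CPM was averaged over the 6 libraries, with 1 CPM added to each value. Over 6834 genes with a mean of at least 20 CPM in Astro2 or Astro1, the median ratio was −0.31. It was −0.12 when CPM were computed over nuclear genes alone. Of these genes 12.8% were higher in Astro2 in all 6 libraries and 27.7% were lower in all 6. The shares are the background for the lists below.

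Genes for the uptake and recycling of transmitters were lower in Astro2 than in Astro1. The median ratio of the 10 genes was −1.17, with 9 lower and 0 higher in all 6 libraries. Slc6a11, the GABA transporter GAT-3, had 1440 and 1319 CPM in the Astro2 control libraries, 1195 and 1765 CPM in the naris-occluded and 1409 and 1552 CPM in the trained libraries, against a mean of 3113 CPM in Astro1. Its log2 ratio was −1.11 ± 0.21 (SD, n = 6). Slc1a3 had 1393 ± 173 CPM in Astro2 and 3492 ± 250 CPM in Astro1, and Slc1a2, the glutamate transporter GLT-1, had 1517 ± 68.3 CPM and 2417 ± 227 CPM. Every Astro2 library was below its Astro1 partner for these 3 transporters. Glul, glutamine synthetase, which turns glutamate into glutamine, stood apart from them with 2702 ± 353 CPM in Astro2 and 3080 ± 199 CPM in Astro1, a ratio of −0.20 ± 0.16 that was below 0 in 5 of 6 libraries and became 0.000464 over nuclear genes alone.

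The genes for potassium and water handling and gap junctions were all lower, 12 of 12 in all 6 libraries, with a median ratio of −1.14. Gja1, connexin 43, had 790 ± 141 CPM in Astro2 and 2061 ± 173 CPM in Astro1, and Gjb6, connexin 30, had the lowest ratio of the list at −1.71 ± 0.34. The water channel Aqp4 was at 446 ± 82.3 CPM against 1004 ± 127 CPM. Receptors followed, with 10 of 14 lower in all 6 libraries and a median of −0.96. Gpr37l1, an orphan receptor of astrocytes, had a ratio of −1.32 ± 0.20, Ntsr2, a neurotensin receptor, −1.02 ± 0.10, and Ntrk2, the receptor TrkB, −0.54 ± 0.19.

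Secreted and lipid genes were lower as lists but held exceptions. Of 15 secreted and matrix genes 13 were lower in all 6 libraries, with a median of −1.11, but the most abundant members were less far apart. Cst3, the protease inhibitor cystatin C, had a ratio of −0.56 ± 0.12, Sparcl1, the synaptic matrix protein hevin, −0.52 ± 0.20, and Cpe, a carboxypeptidase of secretory granules, was higher at 0.23 ± 0.11. Of 18 lipid genes 11 were lower and 2 higher in all 6 libraries. Apoe, the main lipid carrier of the brain, had 24505 ± 3634 CPM in Astro2 and 31548 ± 2017 CPM in Astro1, a ratio of −0.37 ± 0.15. The higher pair was Dbi, an acyl-CoA binding protein, at 0.25 ± 0.13 and Fabp7, the brain lipid-binding protein, at 0.32 ± 0.26. Fabp7 is also a marker of olfactory ensheathing cells, and in thinned cells it was found in 61.3% of Astro2, 55.8% of Astro1, 41.6% of EC2 and 33.3% of MicroG3 cells. Among 19 astrocyte transcription factors 13 were lower and 1 higher in all 6 libraries, with Sox9 at −1.05 ± 0.33 and Hes5, a Notch target, at −1.02 ± 0.24.

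Gfap and S100b ran against the other markers. Gfap had 463 and 306 CPM in the Astro2 control libraries, 392 and 658 CPM in the naris-occluded and 307 and 384 CPM in the trained libraries, and 254 ± 60.7 CPM in Astro1. The Astro2 library was the higher in all 6 pairs, and the log2 ratio was 0.69 ± 0.35. A single Astro2 cell held 32 of 126 Gfap UMIs in control replicate 1 and another held 27 of 94 in naris-occluded replicate 2. In Astro1 a single cell held 39 of 304 in naris-occluded replicate 1. In cells of 500 to 1000 UMIs the log2 ratio of mean levels was 0.53, with Astro2 higher in 5 of 6 libraries. In cells of 700 to 1500 UMIs it was 1.13, with 6 of 6. S100b, a calcium-binding protein of astrocytes and ensheathing glia, had 748 ± 122 CPM in Astro2 and 482 ± 36.9 CPM in Astro1, and its level in OEC4, an olfactory ensheathing cluster, was 1643 CPM. Genes of reactive astrocytes showed no common direction. Of the 7 measured, 2 were higher and 1 lower in all 6 libraries, with a median of −0.12.

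The metallothioneins Mt1, Mt2 and Mt3 were at nearly the same level in Astro2 and Astro1. Mt1 had 5990 and 5805 CPM in the Astro2 control libraries, 7808 and 7459 CPM in the naris-occluded and 7929 and 8177 CPM in the trained libraries, with a mean of 7689 CPM in Astro1. The ratios were −0.10 ± 0.11 for Mt1, −0.17 ± 0.17 for Mt2 and 0.01 ± 0.14 for Mt3, the member typical of brain. Aldoc, the aldolase of astrocytes, had 2708 ± 279 CPM in Astro2 and 2879 ± 145 CPM in Astro1, and 16 glycolytic genes ranged from −1.38 to 0.69 around a median of −0.01, with 4 higher and 2 lower in all 6 libraries. Over nuclear genes alone the directions of Mt1, Mt2 and Aldoc turned, with ratios of 0.10, 0.03 and 0.10, Mt3 was at 0.21 and the glycolytic median was 0.18.

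**Figure D2:**
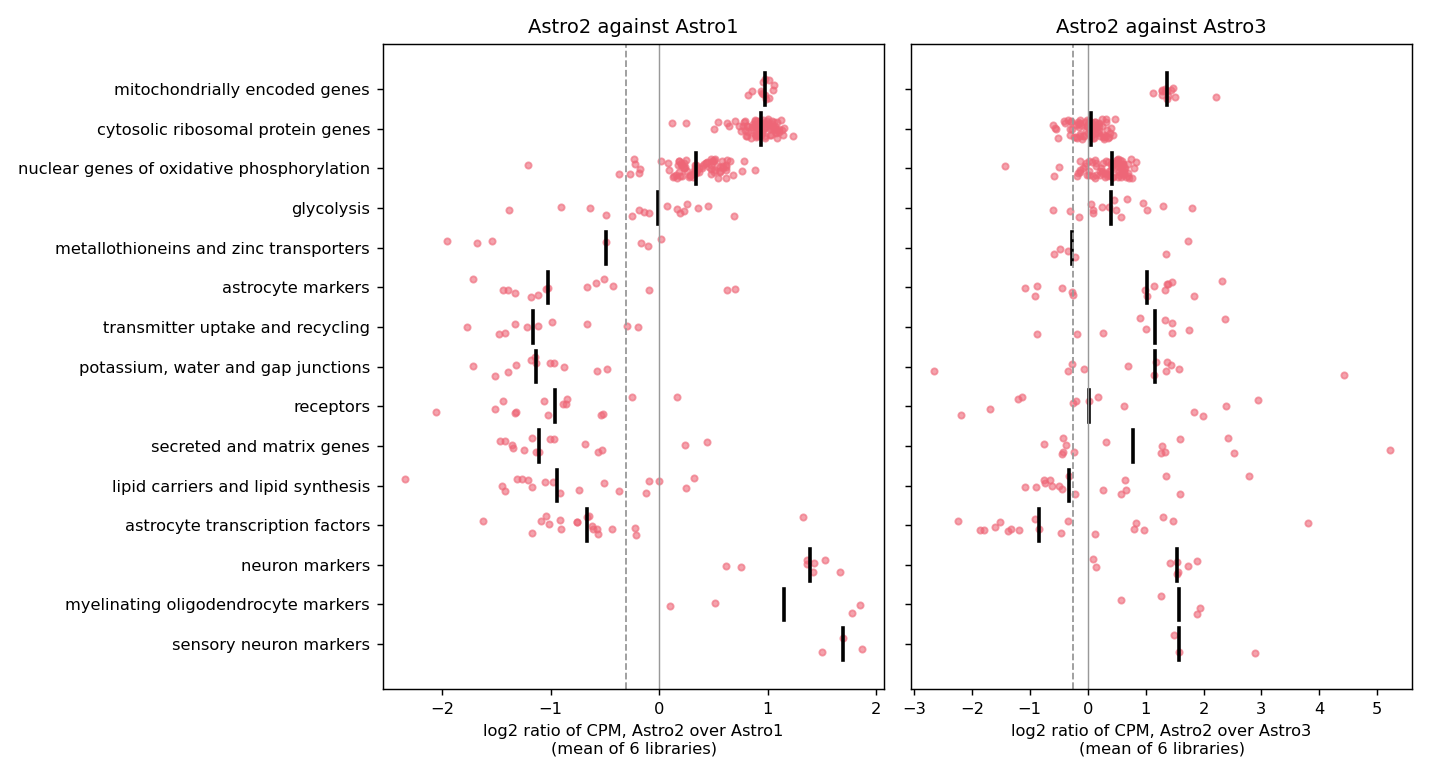
Log2 ratio of CPM of Astro2 over Astro1 (left) and over Astro3 (right), mean of 6 libraries, for the measured members of 15 gene lists; each point is a gene, black bars are list medians and the dashed line is the median of all genes measured. Against Astro1, mitochondrial and ribosomal genes lie to the right (medians 0.97 and 0.93) and transmitter uptake to the left (−1.17); against Astro3 transmitter uptake lies to the right (1.17).

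Genes of the ribosome and the respiratory chain were higher in Astro2 as lists. All 13 mitochondrially encoded genes were higher in all 6 libraries, with a median of 0.97. mt-Atp6, a subunit of ATP synthase, had 51330 ± 2808 CPM in Astro2 and 26438 ± 1752 CPM in Astro1. Of 81 genes of cytosolic ribosomal proteins 79 were higher in all 6 libraries, with a median of 0.93, and Rps29, the most abundant member, had 5242 ± 500 CPM against 2228 ± 243 CPM. Nuclear genes of oxidative phosphorylation were higher by a smaller margin, with a median of 0.34 and 46 of 79 higher in all 6 libraries. Cox8a, a subunit of cytochrome c oxidase, had a ratio of 0.52 ± 0.16. These nuclear lists do not contain mitochondrially encoded RNA, and over nuclear genes alone their medians were 1.13 for ribosomal proteins and 0.53 for oxidative phosphorylation.

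Because Astro2 cells were shallower, the comparison was repeated on cells of 500 to 1000 UMIs, 1559 in Astro2 and 575 in Astro1. Within this window the median depth was still lower in Astro2, 687 against 807 UMIs. Each log2 ratio was taken here from CPM averaged over the 6 libraries, not as an average of 6 ratios. Counts of list genes do not ask for the same sign in all 6 libraries, unlike those above. The shares over all genes given earlier are therefore not their background. No share over all genes is given for this window. The metallothioneins lay apart in these cells, through lower levels in Astro1 rather than higher levels in Astro2. The Astro1 cells of the window, 18.4% of that cluster, had a mean of 3421 CPM of Mt1, far below all Astro1 cells. The Astro2 mean of 6953 CPM was near its level over all cells. Mt1 lay between 5532 and 7921 CPM in the Astro2 libraries and between 2690 and 4136 CPM in the Astro1 libraries, with no overlap, and the log2 ratio was 1.02. Mt3 had 6697 ± 637 CPM against 3099 ± 337 CPM, a ratio of 1.11, and Mt2 had 2304 ± 544 CPM against 1342 ± 256 CPM, a ratio of 0.78. Each of the 3 genes was higher in Astro2 in 6 of 6 libraries. Aldoc, at 2678 ± 297 CPM against 1192 ± 201 CPM, and Glul, at 2655 ± 283 CPM against 1690 ± 198 CPM, shifted in the same way, with ratios of 1.17 and 0.65. The median of the glycolytic genes became 0.73, with 11 of 16 higher, and that of oxidative phosphorylation 0.84, with 76 of 79 higher.

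The low lists were also low in these cells. Slc1a3 had a ratio of −1.28, Slc6a11 of −1.44 and Gja1 of −1.43, each lower in Astro2 in 6 of 6 libraries. The medians were −1.34 for transmitter uptake, −1.21 for potassium, water and gap junctions, −1.15 for receptors and −1.06 for secreted genes. Ribosomal protein genes kept their ratio, with a median of 0.93 and 81 of 81 higher, while the median of mitochondrially encoded genes was 0.34. The Astro2 cells of this window still had a higher mitochondrial share, a median of 24.03% against 16.7%, so cells were also compared in bins of that share.

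Within bins of mitochondrial share the lists differed between the clusters in the same direction as in cells of 500 to 1000 UMIs. The metallothionein and zinc transporter list had a median log2 ratio of −0.49 over all cells, with 0 higher and 4 lower of 7 in all 6 libraries, but its sum is carried by Mt1, Mt2 and Mt3. In cells with up to 15% mitochondrial UMIs, the metallothionein and zinc transporter list summed to 29033 ± 6478 CPM over nuclear genes in Astro2 and 21443 ± 2045 CPM in Astro1. In cells with 25 to 60% it summed to 17247 ± 2734 CPM and 8196 ± 501 CPM, so the list was lower at high shares in both clusters. Transmitter uptake genes took the opposite course in Astro1, from 17277 ± 740 CPM at low shares to 25136 ± 2055 CPM at high shares, and Astro2 held 9410 ± 1530 CPM and 12334 ± 1825 CPM. The Astro2 level in every bin was below the lowest Astro1 bin for this list. Ribosomal protein genes in Astro2 summed to 95904 ± 7237 CPM at low and 136849 ± 13317 CPM at high shares, against 51357 ± 1680 CPM and 61061 ± 7636 CPM in Astro1. Within Astro2, 254 cells fell in the lowest bin, 751 between 15 and 25% and 775 above.

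**Figure D3:**
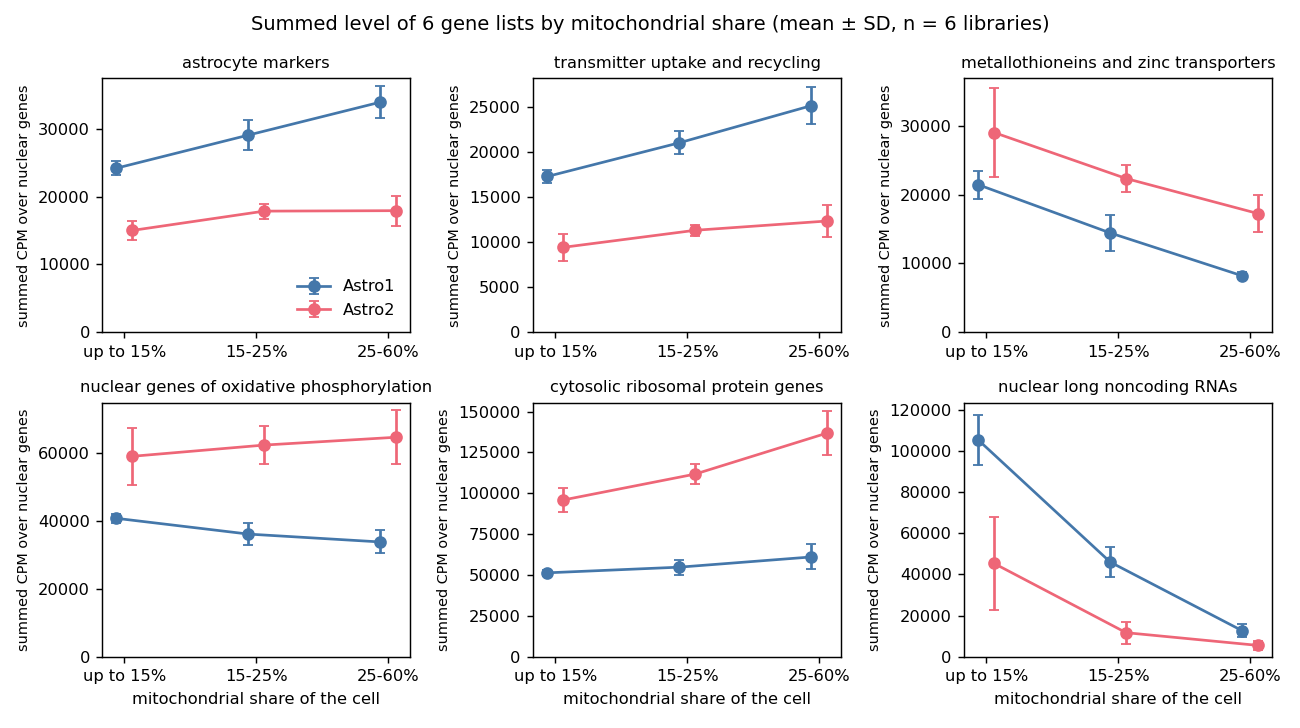
Summed level of 6 gene lists (CPM over nuclear genes, mean ± SD over 6 libraries) in Astro1 and Astro2 cells in 3 bins of mitochondrial share. In each bin Astro2 is higher than Astro1 for metallothioneins (29033 against 21443 in the lowest bin), oxidative phosphorylation and ribosomal proteins, and lower for astrocyte markers, transmitter uptake and nuclear long noncoding RNAs.

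The metallothionein genes lie side by side on chromosome 8. Mt1 and Mt2 are known to be induced through metal response elements, short motifs that bind the zinc-sensing factor MTF-1, while Mt3 is known for responding little to metals. The 250 bases before the start of each gene, from RefSeq on GRCm38.p6 and read on the plus strand, are shown because the 3 genes were higher in Astro2 than in Astro1 in cells of 500 to 1000 UMIs. Capitals mark matches to TGCACNC or TGCGCNC on either strand.
Mt1, chr8:94178839-94179088: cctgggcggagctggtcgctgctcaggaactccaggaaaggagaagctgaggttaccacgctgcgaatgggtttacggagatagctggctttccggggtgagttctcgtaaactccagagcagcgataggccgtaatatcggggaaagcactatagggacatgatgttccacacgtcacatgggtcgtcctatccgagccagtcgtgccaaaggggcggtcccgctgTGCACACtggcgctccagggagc
Mt2, chr8:94172368-94172617: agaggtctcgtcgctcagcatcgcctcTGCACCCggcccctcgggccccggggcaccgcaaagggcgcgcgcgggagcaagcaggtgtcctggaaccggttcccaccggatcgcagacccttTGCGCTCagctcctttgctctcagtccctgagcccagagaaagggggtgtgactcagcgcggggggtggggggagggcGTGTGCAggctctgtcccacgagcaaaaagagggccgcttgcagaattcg
Mt3, chr8:94152357-94152606: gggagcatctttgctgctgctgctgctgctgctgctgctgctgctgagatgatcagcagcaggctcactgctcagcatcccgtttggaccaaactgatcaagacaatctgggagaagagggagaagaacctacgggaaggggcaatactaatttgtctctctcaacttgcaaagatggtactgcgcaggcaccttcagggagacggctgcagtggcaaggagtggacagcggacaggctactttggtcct
The window of Mt2 held 3 matches, that of Mt1 held 1 and that of Mt3 held 0. Each window ends at the RefSeq start of the gene, and bases after it or before another start were not searched. The counts therefore do not compare the elements of the 3 genes as a whole. Of 27025 RefSeq promoter windows of this length 21.3% held at least 1 match and 1.28% at least 3. A match is a description of the letters and not of binding.

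Transcripts of neurons, myelinating oligodendrocytes, sensory neurons and microglia were higher in Astro2 than in Astro1, and lists of other cell types went both ways. Of 2 measured markers of oligodendrocyte precursors 0 were higher and 1 lower in all 6 libraries, with a median of −0.80. Of 3 mural markers 0 were higher and 1 lower in all 6, but their median was 0.93, with ratios from −2.48 to 1.05. Endothelial markers had a median of 0.72 and olfactory ensheathing markers of 0.59, each with 3 of 5 higher and 0 lower. The 8 neuron markers summed to between 1044 and 1815 CPM in the Astro2 libraries and to between 480 and 694 CPM in the Astro1 libraries, and 7 of 8 were higher in all 6 libraries. None of the 8 was at 0. The 6 markers of myelinating oligodendrocytes summed to between 2912 and 4094 CPM against 1118 to 1444 CPM, and none was at 0. Of the 4 measured, 2 were higher and 0 lower in all 6 libraries, with log2 ratios from 0.10 to 1.85. Mbp made up most of the sum. Mbp, myelin basic protein, had 2505 ± 381 CPM in Astro2 and 689 ± 76.5 CPM in Astro1, and clusters of similar depth held it at 1740 CPM in EC2 and 4731 CPM in Neuron16. The 4 sensory neuron markers summed to between 901 and 1749 CPM against 246 to 506 CPM, with 1 of the 4 at 0 in Astro2. S100a5, a calcium-binding protein of olfactory sensory neurons, had 1792 and 1967 CPM in the control, 804 and 497 CPM in the naris-occluded and 2147 and 862 CPM in the trained libraries of Astro2. In Neuron01, which had the highest S100a5 of all clusters, the mean was 20370 CPM. In thinned cells S100a5 was found in 41.0% of Astro2, 18.3% of Astro1, 34.9% of EC2 and 34.3% of MicroG3 cells, so the share in Astro2 was near that in endothelial cells and microglia. Microglial markers summed to between 128 and 252 CPM in Astro2, between 80.5 and 108 CPM in Astro1 and to at least 8433 CPM in MicroG3. Both measured microglial markers were higher in Astro2 than in Astro1 in all 6 libraries, with a median log2 ratio of 1.04. In cells of 500 to 1000 UMIs the log2 ratios of mean levels were smaller, 0.89 for S100a5 and 0.88 for Mbp. List medians fell from 1.39 to 0.46 for neuron, from 1.15 to 0.64 for myelinating oligodendrocyte and from 1.70 to 1.24 for sensory neuron markers. The part of other cells' RNA in the levels of Astro2 was not tested.

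Malat1, a long noncoding RNA kept in the nucleus, was the gene furthest below Astro1 among those of at least 100 CPM in either cluster that had the same sign in all 6 libraries. It had 16064 and 13029 CPM in the Astro2 control libraries, 9950 and 24065 CPM in the naris-occluded and 6008 and 7537 CPM in the trained libraries, against 84368 ± 10668 CPM in Astro1 and 75732 ± 5447 CPM in Astro3. The highest Astro2 library was far below any Astro1 library, and the log2 ratio was −2.87 ± 0.61. The level was uneven between cells. The 10% of Astro2 cells with the most Malat1 UMIs held between 66.6% and 86.7% of all Malat1 UMIs of the cluster in each library. In thinned cells Malat1 was found in 65.9% of Astro2, 68.5% of EC2 and 96.2% of Astro1 cells, and over the 38 clusters Astro2 ranked 8 from the lowest. In cells of 500 to 1000 UMIs the log2 ratio of the mean levels was −1.89, with 10477 ± 4667 CPM in Astro2 and 38714 ± 11531 CPM in Astro1.

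The genes further below Astro1 by rank were of low abundance. Clmn, the membrane protein calmin, had a log2 ratio of −2.58 ± 0.67, Pdgfrb, a growth factor receptor best known from mural cells, −2.48 ± 0.80, Mertk, a receptor for engulfment, −2.38 ± 0.51, and the cadherin Cdh10 −2.35 ± 0.76. Mertk had 21.3 ± 7.30 CPM in Astro2, 30 UMIs in all, and a mean of 113 CPM in Astro1, and Clmn rested on 50 UMIs in Astro2.

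The ratio of Astro2 to Astro1 also ran with transcript length. For 1447 of 1558 nuclear genes with at least 100 CPM in either cluster, 92.9% of them, the longest coding transcript was taken from GENCODE. By quartile of length, from short to long, the median log2 ratio over nuclear genes was 0.63, 0.35, −0.11 and −0.52. Spearman's rho was −0.51 over genes, between −0.52 and −0.40 in single libraries, and −0.48 without ribosomal protein genes. Against Astro3 rho was −0.21, between −0.24 and 0.016 in single libraries. Genes are not independent replicates, and the clusters compared share libraries but differ in depth, so these are descriptions.

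Against Astro3, Astro2 held more of the genes for transmitter uptake and ion handling. Over 7073 genes the median log2 ratio was −0.25, with 8.38% higher and 18% lower in all 6 libraries. Of 10 transmitter genes 6 were higher and 1 lower in all 6 libraries, with a median of 1.17, and of 12 genes for potassium, water and gap junctions 7 were higher and 1 lower, with a median of 1.16. Slc6a11 had a mean of 540 CPM in Astro3, a ratio of 1.46 ± 0.47, and Slc1a2 had 611 CPM, a ratio of 1.33 ± 0.27. Slc1a3 went the other way, with 2544 CPM in Astro3 and a ratio of −0.87 ± 0.21. Slc6a11 and Slc1a2 in Astro2 thus lay between Astro1 and Astro3, while Slc1a3 and Gja1, at 941 CPM in Astro3, were lowest in Astro2. Ribosomal protein genes were level, with a median of 0.05, 11 higher and 12 lower of 81, and all 13 mitochondrially encoded genes were higher with a median of 1.36. Several lists of other cell types were also higher than in Astro3. The medians were 1.55 for neuron markers, with 6 of 8 higher in all 6 libraries, and 1.58 for myelinating oligodendrocyte markers, with 3 of 4. They were 1.89 for endothelial markers, with 3 of 5, and 2.25 for olfactory ensheathing markers, with 5 of 5. Other lists were less even. Mural markers had a median of 0.07, with 1 of 3 higher, and immature neuron markers of 0.15, with 0 of 3. Of 2 microglial markers 0 were higher in all 6, and of 3 precursor markers 2 were higher and 1 lower. The part of these cell types in the levels of Astro2 was not tested.

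Single genes separated Astro2 from Astro3 more sharply. Igfbp2, which binds insulin-like growth factors, had 597 ± 136 CPM in Astro2, 1346 ± 297 CPM in Astro1 and 17.5 ± 10.9 CPM in Astro3, a ratio to Astro3 of 5.21 ± 1.00. Timp4, an inhibitor of matrix metalloproteinases, had 116 ± 21.6 CPM in Astro2 and 5.43 ± 7.25 CPM in Astro3, and Car2, a carbonic anhydrase, had 482 ± 99.3 CPM and 53.1 ± 54.7 CPM. Olig1, a transcription factor of the oligodendrocyte lineage that some astrocytes retain, had 146 ± 35.6 CPM in Astro2, 193 ± 35.8 CPM in Astro1 and 21.9 ± 22.5 CPM in Astro3. Its partner Olig2 had 22.3 to 56.0 CPM in the Astro2 libraries and was listed at 0 in every Astro3 library. Where an Astro3 library had 0 UMIs of a gene, the ratio depends on the 1 CPM added.

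On the low side, 1500015O10Rik had a mean of 27.3 CPM in Astro2 and 775 ± 160 CPM in Astro3, a ratio of −5.70 ± 2.16. Rnd3, a small GTPase of cell shape, had 36.5 ± 30.7 CPM and 339 ± 24.4 CPM, and Sfrp1, a secreted inhibitor of Wnt signaling, had 29.2 ± 18.4 CPM and 249 ± 69.3 CPM. Gfap was lower in Astro2 than in Astro3 in 5 of 6 libraries, with a mean of 908 ± 324 CPM in Astro3. Dbi was lower too, 4997 ± 559 CPM against 10599 ± 1428 CPM, and Mt1, Mt2 and Mt3 had ratios of −0.48 ± 0.16, −0.57 ± 0.19 and −0.21 ± 0.23. Astro3 held only 33 to 82 cells per library, so the depth of its libraries limits these ratios.

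The number of Astro2 cells was compared between conditions against all annotated cells. The percentage of Astro2 was 3.21% in control replicate 1 and 3.6% in control replicate 2, 2.94% and 2.18% after occlusion, and 5.04% and 3.49% after training. The naris-occluded libraries were the lowest, and trained replicate 2 lay between the controls. In edgeR's quasi-likelihood test on cell numbers over 38 clusters, Astro2 was at a log2 change of −0.41 (SE 0.29, adjusted p = 0.534) in naris-occluded against control, 0.33 (SE 0.29, adjusted p = 0.755) in trained against control and 0.74 (SE 0.29, adjusted p = 0.0811) in trained against naris-occluded libraries. None passed 0.05. The last change was 0.91 (adjusted p = 0.0467 in edgeR) among nonneuronal clusters and 0.98 (0.0291) without trained replicate 2, which pass, and 0.45 (0.460) without trained replicate 1, where the change of trained against control was 0.035. Of the 38 clusters 2.63% passed in the first comparison and 15.8% in the last. In trained against control 0 clusters passed in edgeR, with 3 at an unadjusted p under 0.05, and 0 in DESeq2.

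The share of all astrocytes was nearly constant, 9.75% to 10.4% of cells in the 6 libraries, while the division between Astro1 and Astro2 varied. Astro2 held 31.4% and 35.1% of astrocytes in the control, 28.3% and 21.4% in the naris-occluded and 49.1% and 35.8% in the trained libraries. The naris-occluded libraries were both below the controls and the trained both above. The difference was −8.38 percentage points for naris-occluded against control, 9.19 for trained against control and 17.6 for trained against naris-occluded, each with p = 0.33 in an exact two-sided permutation test, the smallest p that 2 libraries against 2 can give. With Astro1 and Astro2 counted as a single cluster, the log2 changes in the share of all cells were −0.01, 0.01 and 0.02.

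Library values differed between the conditions too, in part along with these shares. Trained replicate 2 had a higher Astro2 share of astrocytes than both controls but a lower mitochondrial share. The median mitochondrial share over all cells of a library was 11.6% in both controls, 9.66% and 9.25% in the naris-occluded and 14.4% and 10.5% in the trained libraries. Cells under 1000 UMIs made up 48.7% of trained replicate 1 and 26.5% to 38.7% of the others, and Neuron16, another shallow cluster, made up 11.9% of trained replicate 1 and 2.29% to 6.77% of the others. Among cells of at least 1000 UMIs, Astro2 held 7.69% and 7.13% of astrocytes in the control, 11.3% and 2.79% in the naris-occluded and 8.54% and 5.66% in the trained libraries, which overlapped, and the log2 change in the share of all cells was −0.13 for naris-occluded against control, −0.24 for trained against control and −0.11 for trained against naris-occluded. The parts of library quality and condition in the shares cannot be told apart.

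**Figure D4:**
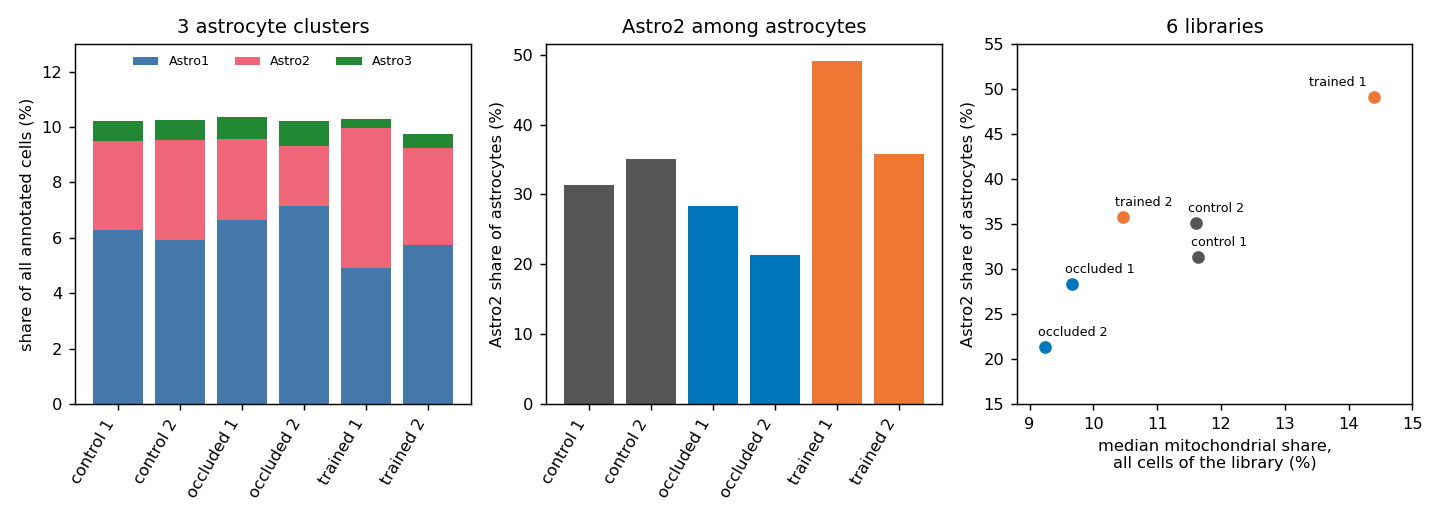
Left, Astro1, Astro2 and Astro3 as a stacked percentage of all annotated cells in the 6 libraries; middle, Astro2 as a percentage of astrocytes; right, that percentage against the median mitochondrial share of all cells of the library. The stacks are of nearly equal height (9.75% to 10.4%) and the Astro2 share of astrocytes is highest in trained replicate 1 (49.1%), which also has the highest mitochondrial share (14.4%).

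Within Astro2, few genes passed the test between conditions, which does not show that few changed. Counts were summed over the Astro2 cells of each library, and 3293 genes were tested with edgeR's quasi-likelihood test with Benjamini-Hochberg adjustment. In naris-occluded against control libraries 1 gene (0.0304% of those tested) fell and 0 rose, with 138 genes at an unadjusted p under 0.05. In trained against control 1 gene fell (0.0304%) and 0 rose, with 110 at an unadjusted p under 0.05. In trained against naris-occluded libraries 2 rose (0.0607%) and 1 fell, together 0.0911% of those tested, with 176 at an unadjusted p under 0.05. DESeq2 called 0 genes in each comparison, with 21, 11 and 28 genes at an unadjusted p under 0.05. The comparisons share libraries.

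S100a5 was the gene that fell after naris occlusion, by 1.56 on the log2 scale (SE 0.26, adjusted p = 0.00136), and in trained libraries it was higher than in naris-occluded libraries by 1.26 (SE 0.26, adjusted p = 0.0186). The rise did not pass without naris-occluded replicate 2 (0.98, adjusted p = 0.327 in edgeR), without trained replicate 1 (0.39, 0.997), with a minimum of 30 UMIs (1.25, 0.235) or with cells of at most 40% mitochondrial UMIs (1.27, 0.116). Both naris-occluded libraries, at 804 and 497 CPM, were below every other Astro2 library. The same direction was seen in every cluster of the bulb. S100a5 was lower in naris-occluded than in control libraries in 38 of 38 clusters, with a median log2 change of −1.74, and the level in Neuron01 was 26677 CPM in control and 12265 CPM in naris-occluded libraries. In EC2 it was 1572 and 450 CPM. The part of RNA from sensory neurons in the change of Astro2 was not tested. The next genes did not pass in the fit to all libraries. Scg2, a granin of neuronal secretory granules, had 136 and 132 CPM in control and 24.8 and 49.0 CPM in naris-occluded libraries (log2 −1.97, adjusted p = 0.0557 in edgeR). It passed with every gene of at least 1 UMI (−2.01, 0.0416), without trained replicate 1 (−1.97, 0.00684) and without trained replicate 2 (−1.98, 0.00858), and its log2 change was negative in 36 of 38 clusters. Ctxn1, the neuronal membrane protein cortexin, had an adjusted p of 0.413 and Atp1b1, a sodium pump subunit, of 0.471. All 7 tested neuron markers had negative log2 changes, with a median of −0.28, and 0 passed. Of all 3293 genes tested in this comparison 1590 had positive changes, and the median was −0.015.

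Malat1 fell in trained against control libraries by 1.13 on the log2 scale (SE 0.22, adjusted p = 0.0267) and in trained against naris-occluded libraries by 1.29 (SE 0.22, adjusted p = 0.00249). The trained libraries, at 6008 and 7537 CPM, were the lowest of the 6, but the naris-occluded pair stood far apart, at 9950 and 24065 CPM. Without naris-occluded replicate 2 the change against that condition was −0.54 (adjusted p = 0.787), and without mitochondrially encoded genes the change against control was −1.12 with an adjusted p of 0.220. That change did not pass either without control replicate 1 (−0.98, adjusted p = 0.163 in edgeR), with a minimum of 30 UMIs (−1.13, 0.315) or with cells of at most 40% mitochondrial UMIs (−1.16, 0.179), and the change against naris-occluded libraries did not pass with a minimum of 30 UMIs (−1.33, 0.0565). Nuclear long noncoding RNAs in Astro2 summed to 45335 ± 22633 CPM over nuclear genes in cells with up to 15% mitochondrial UMIs and to 5530 ± 2251 CPM in cells with 25 to 60%. The median mitochondrial share of Astro2 cells was 23.99% and 25.05% in control, 22.13% and 20.15% in naris-occluded and 25.03% and 22.96% in trained libraries, and its part in the change was not tested. Malat1 was lower in trained than in control libraries in 36 of 38 clusters, with a median of −0.25, and Astro2 at −1.10 was near the lowest cluster at −1.11.

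Hba-a1, a globin of red blood cells, was the remaining gene that rose in trained against naris-occluded libraries (log2 4.97, adjusted p = 0.0149). Astro2 held 16 and 2 UMIs of it in control, 2 and 1 in naris-occluded and 10 and 114 in trained libraries. A single cell of trained replicate 2 held 112 of the 114 UMIs, and for Hba-a2 a single cell held 53 of the 54 UMIs in this library. Without cells of at least 20 Hba-a1 UMIs, Hba-a1 was no longer among the genes called, but Hbb-bs, another globin, then passed as lower in trained than in naris-occluded libraries.

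Values of astrocyte genes are given as a description, since at most 0.0911% of all genes passed in any comparison and lists of this size would hold hardly any. Of 15 astrocyte markers 0 passed in edgeR, with median log2 changes of 0.06 in naris-occluded against control, 0.08 in trained against control and 0.06 in trained against naris-occluded libraries. Transmitter uptake genes had medians of 0.01, −0.02 and 0.0098, and 0 of 10 passed. Gfap had log2 changes of 0.36 (SE 0.24), −0.21 (SE 0.24) and −0.57 (SE 0.25) in the same order, with edgeR adjusted p of 0.997, 0.997 and 0.859. Without single libraries these ranged from −0.014 to 0.70, from −0.45 to 0.12 and from −0.89 to −0.19, so the direction against control turned with the library left out. Slc1a2 varied least among the named genes, at −0.03 (SE 0.18), 0.04 (SE 0.18) and 0.07 (SE 0.18). Mt1 was lower in both control libraries than in the other 4, with log2 changes of 0.32 (SE 0.17) after occlusion and 0.43 (SE 0.16) after training, and adjusted p = 0.997 in both. Mt2 had 1877 and 1716 CPM in control, 2788 and 2563 CPM in naris-occluded and 2545 and 3276 CPM in trained libraries. Its log2 change was positive in 32 of 38 clusters both after occlusion (median 0.28) and after training (median 0.44). The Mt2 change in trained against control was 0.67 (SE 0.18, adjusted p = 0.642 in edgeR), and 0.68 (adjusted p = 0.0484) without naris-occluded replicate 2. The 13 mitochondrially encoded genes had a median of −0.29 in naris-occluded against control libraries, all 13 negative, and 0 passed. The median over all 3293 genes tested was −0.015, with 1590 positive.

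**Figure D5:**
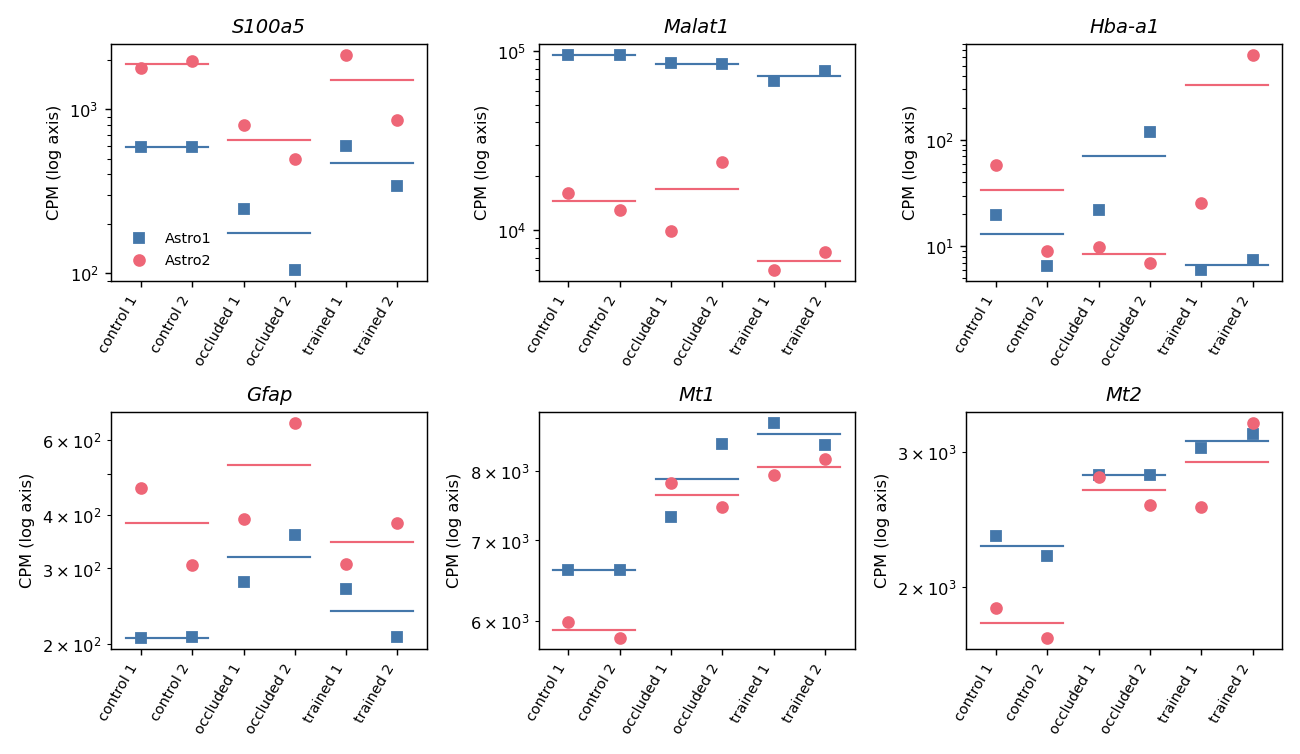
CPM (log axes) of 6 genes in the 6 libraries, for Astro1 (squares) and Astro2 (circles), with lines at the mean of each condition. S100a5 is lowest in the naris-occluded libraries of both clusters (804 and 497 CPM in Astro2), Malat1 in Astro2 is lowest in the trained libraries (6008 and 7537 CPM), and Hba-a1 in Astro2 is highest in trained replicate 2.

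The response of Astro2 was set against that of Astro1 in a model over both clusters with the library as a block, in which 8665 genes were tested. The difference between the responses passed for 1 gene (0.0115%) in naris-occluded against control, 2 genes (0.0231%) in trained against control and 6 genes (0.0692%) in trained against naris-occluded libraries. Of these 9 results 6 were globin genes. S100a5 was not among them, with a difference in response to occlusion of 0.19 (SE 0.22, adjusted p = 0.996) and a change in Astro1 of −1.76. For Mt2 in trained against control libraries the difference was 0.22 (SE 0.18, adjusted p = 0.999), and Astro1 had a change of 0.44. Malat1 fell further in Astro2 than in Astro1 in trained against naris-occluded libraries, by a difference of 0.92 (SE 0.18, adjusted p = 0.000316 in edgeR). The size of the difference depended on the naris-occluded libraries. It was −0.29 without naris-occluded replicate 2 and −1.50 without naris-occluded replicate 1, and without any other single library it lay between these values. Malat1 did not pass with Astro1 cells of at most 1000 UMIs (difference −0.71, adjusted p = 0.161 in edgeR), without mitochondrially encoded genes (−0.92, 0.124) or with cells of at least 700 UMIs (−1.14, 0.307). It passed with a minimum of 30 UMIs and with a replicate block. In trained against control libraries Malat1 did not pass in the main fit. There it passed, with a negative difference, with Astro1 cells of at most 1000 UMIs and with a minimum of 30 UMIs. For Gfap the differences were −0.28, −0.43 and −0.15, and none passed.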

How the data were processed

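Single-cell RNA sequencing libraries of olfactory bulb, some with cells of the adjoining epithelium according to the labels, were made with droplet capture of 3′ ends. The authors aligned reads to mm10 and counted UMIs with Cell Ranger 2.0.0, kept barcodes with at least 200 genes, removed doublets, and clustered cells with Seurat 2.2.1 after regressing out UMI number and mitochondrial genes. The deposited table holds raw UMI counts of 18560 genes in 52549 barcodes, not normalized, and the deposited annotation gives the cluster, the library and the mitochondrial fraction of 51426 cells. The cells, clusters and libraries were used as deposited, with no further filter. Of the trained libraries, the library column was used where cell-name prefixes differed from it.

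Counts were summed per cluster and library with Python 3.11.15, NumPy 2.4.6 and pandas 2.3.3 and expressed as CPM, with a pseudocount of 1 CPM for ratios. Conditions were compared on the sums of 2 libraries each with edgeR 4.0.16 in R 4.3.3 (TMM scaling, filterByExpr, quasi-likelihood test, Benjamini-Hochberg threshold 0.05), all 6 libraries sharing the spread. The response of Astro2 was compared with that of Astro1 in a model with the library as a block, and cell numbers were tested over 38 clusters. Shares of astrocytes were tested by exact permutation with SciPy 1.17.1. The total UMI count of the cluster limits genes of few UMIs. Code was tested on simulated data. Alternatives were DESeq2 1.42.0, other scalings, filters on counts, depth and mitochondrial share, and leaving out each library.

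Genes were named by rule. These were Gfap, the 3 members of each list highest in Astro2, the 8 highest and 8 lowest ratios to Astro1 and to Astro3 among genes of at least 100 CPM with the same sign in 6 of 6 libraries, genes passing between conditions (otherwise the 3 of smallest p), and a fixed set of astrocyte genes. Aqp4, Gjb6 and Sox9, which are outside the rule, the Hba-a1 cell and the alternatives on it were chosen after their values were seen. The cluster and gene lists were chosen with earlier results of these data known. Transcript lengths came from GENCODE and promoters from RefSeq, and no coordinates of different builds were mixed. A gene that the naming rule selects is not reported here.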

Additional observations from a re-analysis of the deposited data

Results flagged for a closer look

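The difference between the responses of Astro2 and Astro1 passed the test for 6 genes in 9 results. Hba-a1, a globin gene of red blood cells, had differences on the log2 scale of −4.26 in naris-occluded against control, 3.89 in trained against control and 8.14 in trained against naris-occluded libraries. Hba-a2 had 3.99 in trained against control and 5.12 in trained against naris-occluded libraries, and Hbb-bs had 2.12 in the latter. In Astro1, a single cell of naris-occluded replicate 2 held 120 of 132 UMIs of Hba-a1, and in Astro2 a single cell of trained replicate 2 held 112 of 114. Without these cells, Hba-a1 had differences of −2.39, 0.20 and 2.59, with edgeR adjusted p of 0.996, 0.999 and 1.00.

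Malat1, the nuclear long noncoding RNA, had a difference of −0.92 in trained against naris-occluded libraries, while separate fits to each cluster gave changes of −1.29 in Astro2 and −0.23 in Astro1. Without single libraries the difference ranged from −1.50, without naris-occluded replicate 1, to −0.29, without naris-occluded replicate 2. Xist, which is transcribed in female cells, had −1.75 in the same comparison. The value was 0.17 without naris-occluded replicate 2 and 1.44 without trained replicate 2. These fits leave only a male pool in 1 condition, so they cannot show whether the Xist difference is stable. The Xist level in Astro2 was 301 CPM in control replicate 2, 819 CPM in naris-occluded replicate 2 and 239 CPM in trained replicate 2, the female pools, and 0 in the male pools. Rmst, a long noncoding RNA, had −3.23 (SE 0.76, adjusted p = 0.0269 in edgeR) at low levels, 5.56 to 42.0 CPM in the naris-occluded and trained libraries of Astro2. Rmst did not pass with cells of at least 700 UMIs, with Astro1 cells of at most 1000 UMIs, or without the cells of at least 20 Hba-a1 UMIs. It passed with a minimum of 30 UMIs, with a replicate block and without mitochondrially encoded genes. Fits without a naris-occluded or trained library leave 1 library in that condition, so their calls for Rmst are not given. Whether the Rmst difference is stable to leaving out these libraries is not shown.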

How the results depend on the processing

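Counts of genes called are given in the order naris-occluded against control, trained against control and trained against naris-occluded. DESeq2 called 0, 0 and 0 genes in Astro2, against 1, 1 and 3 in edgeR, and every gene with at least 1 UMI gave 3, 3 and 5. With a minimum of 30 UMIs the counts for the trained libraries were 0 and 0, without mitochondrially encoded genes the second was 0, and with cells of at most 40% mitochondrial UMIs they were 0 and 1. For the response against Astro1, DESeq2 called 0, 0 and 0, against 1, 2 and 6. The next 3 settings were chosen after seeing the data. Cells of at least 700 UMIs gave 0, 3 and 4, and Astro1 cells of at most 1000 UMIs gave 0, 1 and 0, the 1 gene being Malat1. Leaving out the cells of at least 20 Hba-a1 UMIs gave 0, 0 and 2, with Hbb-bs at −0.22 in the last. Leaving out a library gave 1 to 3, 1 to 4 and 0 to 8 genes, and 0 to 5, 0 to 3 and 1 to 10 for the response against Astro1, where Xist lay between −1.74 and 1.44, with 0.17 without naris-occluded replicate 2. S100a5 passed in naris-occluded against control without any single library (−2.00 to −1.25). In trained against naris-occluded it was lost without naris-occluded replicate 2 (adjusted p = 0.327 in edgeR) or trained replicate 1 (0.997), and Malat1 was lost in trained against control without control replicate 1 (−0.98, adjusted p = 0.163), with a range of −1.26 to −0.98 over the libraries left out.

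The share of all cells changed by −0.43, 0.39 and 0.82 (log2) in a chi-square test on pooled cells, which ignores the spread between libraries, and by 0.91 in the last comparison among nonneuronal clusters (adjusted p = 0.0467 in edgeR). With cells of at least 1000 UMIs it was −0.24 and −0.11 for the trained libraries, a setting chosen after seeing the data for this share alone, and the share of astrocytes differed by −0.35, −0.31 and 0.0445 percentage points. Leaving out a library gave −0.64 to −0.21, 0.04 to 0.57 and 0.45 to 0.98 for all cells, the last without trained replicate 2 (adjusted p = 0.0291 in edgeR), and −11.9 to −4.90, 2.54 to 15.8 and 10.9 to 24.2 points for astrocytes. The replicate number follows sex in every condition, but it was left out of the main fits, so their spread includes sex. Deviations of same-numbered libraries had correlations of −0.00076, 0.0398 and 0.0699 over 3293 genes. Such correlations cannot show that sex has no part in single genes. A replicate block gave −0.43, 0.30 and 0.74 for the share of all cells, 1, 1 and 4 genes, and 1, 1 and 6 for the response against Astro1. The gene gained was Xist, and the response lost, in trained against control, was that of Hba-a1.

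The median of astrocyte markers against Astro1 was −1.02, and −0.83 over nuclear genes, −0.86 in cells of 500 to 1000 UMIs, −0.84 at up to 20% mitochondrial UMIs and −1.06 to −0.94 without single libraries. Against Astro3 it was 0.94 to 1.14 without single libraries. Glul turned to 0.000464, 0.65 and 0.13 in the first 3 settings and 0.43 in cells of 700 to 1500 UMIs, and Mt2 to 0.0273, 0.78, 0.29 and 0.57. Id2 turned to 0.53 and 0.27 in the depth windows. The metallothionein and zinc transporter list against Astro3 turned to 0.0233 at up to 20% mitochondrial UMIs. In the windows of depth and mitochondrial share, ratios were taken from CPM averaged over the libraries, not averaged over ratios. The depth windows against Astro3 were not run because too few Astro3 cells fell in them, and a minimum of 500 UMIs removed no cell. The causes were not tested.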
